A study of Mus musculus with 8 samples.

Results

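The genes of cholesterol and fatty acid synthesis were described in mouse embryonic stem cells that lacked one of 3 enhancers. The set was a list of 33 genes named by function: 7 enzymes from acetyl-CoA through mevalonate to farnesyl diphosphate, 11 enzymes from squalene to cholesterol, 5 genes of SREBP control, 4 sterol transport genes and 6 fatty acid synthesis genes. The SREBP control genes are those of the SREBP transcription factors themselves (Srebf1 and Srebf2) and of their regulators (Scap, Insig1 and Insig2). Of the 33 genes, 30 had a row in the files, among 17723 identifiers in all, and all 30 passed the minimum of a mean of 1 FPKM (fragments scaled by transcript length and library size), as did 11268 genes in all. The expression of the condensing enzyme Hmgcs1, the decarboxylase Mvd and the sterol reductase Tm7sf2 was not analysed here.

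All samples were ES-E14TG2a cells, a feeder-independent mouse embryonic stem cell line of the 129/Ola strain. Total RNA was sequenced from 4 groups of 2 replicates: unedited cells (WT) and cells carrying the enhancer knockout E1-KO, E2-KO or E3-KO, made with CRISPR/Cas9. All groups, WT included, grew on gelatin in serum medium with LIF, the GSK3 inhibitor CHIR99021 and the MEK inhibitor PD0325901. The labels call the replicates biological duplicates and do not say whether they came from separate clones or cultures, so the p-values measure the spread between these samples, which may be technical. The positions of the enhancers, and whether each line is 1 clone, are not given in the sources used here, and with 1 line label per knockout an effect of the deletion and an effect of the line cannot be told apart.

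Animal cells build cholesterol from acetyl-CoA through mevalonate, isoprenoid diphosphates, squalene and lanosterol. When sterol in the endoplasmic reticulum is low, SCAP escorts the SREBP precursors to the Golgi, where they are cleaved and release factors that raise transcription of the synthesis enzymes and of fatty acid synthesis genes. INSIG proteins hold SCAP back when sterol is plentiful, and the oxysterol-activated LXR receptors drive genes of sterol efflux.

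Promoter sequence was available for 26 of the 33 genes, from RefSeq's windows of 250 bases before to 50 bases after the start site in build GRCm38.p6, a different build from the mm9 named in the submitters' processing notes. No window was available for Fdft1, Fdps, Npc1, Scd1, Scd2, Sqle and Stard4. The stretches before the start site of 8 genes are shown to place the CCAAT box (CCAAT, or ATTGG on the other strand) and the E-box CACGTG relative to the genes' roles. The 8 were chosen by hand, each holds a CCAAT box, and others with a window, such as Dhcr7, are not shown. Each is read 5′ to 3′ in the gene's direction with matches in capitals.
Idi1, chr13:8885546-8885605, plus strand: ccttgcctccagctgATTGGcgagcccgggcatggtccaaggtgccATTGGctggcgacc
Msmo1, chr8:64733614-64733753, minus strand: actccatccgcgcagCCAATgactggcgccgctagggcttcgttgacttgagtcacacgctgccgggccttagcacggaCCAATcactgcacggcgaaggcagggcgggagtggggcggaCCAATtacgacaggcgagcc
Cyp51, chr5:4104707-4104741, minus strand: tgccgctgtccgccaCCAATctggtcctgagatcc
Nsdhl, chrX:72918397-72918520, plus strand: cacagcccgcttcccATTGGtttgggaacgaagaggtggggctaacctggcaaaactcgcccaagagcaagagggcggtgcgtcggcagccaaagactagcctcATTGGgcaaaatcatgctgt
Sc5d, chr9:42264305-42264413, minus strand: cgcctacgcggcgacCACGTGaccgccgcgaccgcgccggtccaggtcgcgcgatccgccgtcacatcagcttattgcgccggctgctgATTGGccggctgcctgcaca
Insig1, chr5:28071181-28071331, plus strand: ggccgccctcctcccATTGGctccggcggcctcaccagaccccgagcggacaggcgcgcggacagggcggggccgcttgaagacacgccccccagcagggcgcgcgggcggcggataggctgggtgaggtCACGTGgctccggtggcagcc
Srebf2, chr15:82147119-82147153, plus strand: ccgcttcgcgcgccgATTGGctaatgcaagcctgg
Npc2, chr12:84773113-84773202, minus strand: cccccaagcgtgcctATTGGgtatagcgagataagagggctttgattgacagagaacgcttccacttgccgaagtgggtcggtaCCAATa

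Searched on both strands of the whole window, the CCAAT box was found in 21 of the 26 genes (80.8%), against 41.1% of 27025 genes with such a window. It was found in 14 of the 15 sterol-step genes with a window. The promoter counts include Hmgcs1, Mvd and Tm7sf2, whose expression was not analysed, so they do not describe the measured genes alone. The GC box GGGCGG was found in 22 of the 26 genes (84.6%), against 38.2% of all genes. The E-box CACGTG was found in 6 genes (23.1%), against 8.09% of all genes. The sterol element core TCACNCCAC was found in 1 gene (3.85%), Hmgcs1, against 1.44% of all genes. The motifs can overlap: TCACNCCAC ends in the first letters of CACGTG, and the GC box read on the other strand, CCGCCC, ends in the first letters of CCAAT. A match describes letters in a window and is not a binding site. The 27025 genes were not limited to genes expressed in these cells. No comparison with expressed genes alone was made, so the higher shares cannot be tied to the pathway.

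Absolute depth was unknown, since the files hold FPKM and no counts. Relative to WT replicate 1, the depths read from steps in low values ran from 0.785 to 1.01, although only 9.07% to 14.2% of the low values lay on the modal step. Replicates correlated at 0.985 to 0.994 over the tested genes. The deletions are of enhancers and cannot be checked in gene-level values. Sox2, a core pluripotency factor, stood at 131 and 136 FPKM in WT, 58 and 60.3 in E1-KO, 114 and 97.5 in E2-KO, with 97.7 and 91 in E3-KO. The markers of the labelled cell type were present: the summed FPKM of 10 naive stem cell genes ran from 2880.4 to 2992.5 in WT, 2461.6 to 2564.9 in E1-KO, 2668.4 to 2801.2 in E2-KO, with 2224.8 to 2545.7 in E3-KO. The sums hide single genes: against WT, 6 fell in E1-KO, 4 fell and 2 rose in E2-KO, and 6 fell in E3-KO. These are limma calls at an adjusted p under 0.05. Over all tested genes 23.0%, 22.0% and 30.8% fell, and 14.2% rose in E2-KO. The summed level of 9 fibroblast genes was 1.4 to 1.9 in WT, 7.4 to 12.1 in E1-KO, 4.5 in both E2-KO samples and 4.1 to 4.8 in E3-KO. In E1-KO, Acta2 was at 6.19 and 2.42, and Lum and Dcn were at 0. The summed level of 6 of 8 primitive endoderm genes was 1.6 in both WT samples, 0.7 to 0.9 in E1-KO, 1.0 to 1.3 in E2-KO, with 2.5 to 4.8 in E3-KO. That of 8 trophoblast genes was 28.5 to 28.8 in WT, 21.6 to 28.0 in E1-KO, 20.0 in both E2-KO samples and 36.0 to 53.8 in E3-KO. These sums hide single genes too. Gata6, the only endoderm gene tested, made up most of its sum in E3-KO, at 3.72 and 1.76. Of the 4 trophoblast genes tested, 2 were called higher in E3-KO and none lower, against 13.9% and 30.8% of all tested genes. The part of these cells in the results was not tested. In these bulk samples, fewer cells of a type and less RNA per cell cannot be told apart.

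Against WT, sterol synthesis enzymes were higher in E1-KO, fewer were higher in E2-KO, and none was higher in E3-KO, where several were lower. In E1-KO, 11 of the 30 genes rose and 4 fell, against 15.0% and 23.0% of all tested genes, by limma-trend on log2(FPKM + 1) with a Benjamini-Hochberg adjusted p under 0.05. In E2-KO, 6 rose and 3 fell, against 14.2% and 22.0% of all tested genes. In E3-KO, none rose and 15 fell, against 13.9% and 30.8% of all tested genes. Medians of the log2 fold change over the 30 genes were 0.16, 0.03 and -0.40 in E1-KO, E2-KO and E3-KO, beside -0.06, -0.08 and -0.15 over all tested genes. These 3 comparisons share their WT samples. In E1-KO the 11 higher were 7 without WT replicate 2, and the 4 lower were 2 without E1-KO replicate 1. In E2-KO the 6 higher were 3 without WT replicate 1, WT replicate 2 or E2-KO replicate 2, and 3 rose and 4 fell after scaling that omitted the 50 highest genes. The count of 15 in E3-KO was 8 when WT replicate 1 was left out and 9 after quantile normalization. The scaling also sets the split over all tested genes: in E3-KO 1567 were higher and 3470 lower, and with median-ratio scaling 2359 and 2370, where 10 of the 30 genes fell and none rose. The shares over all genes move with the samples too: leaving out 1 sample, the genes called were 2041 to 4672 in E1-KO (4284 with all samples), 1871 to 4453 in E2-KO (4071) and 2829 to 5339 in E3-KO (5037), lowest without WT replicate 2 in each.

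**Figure D1:**
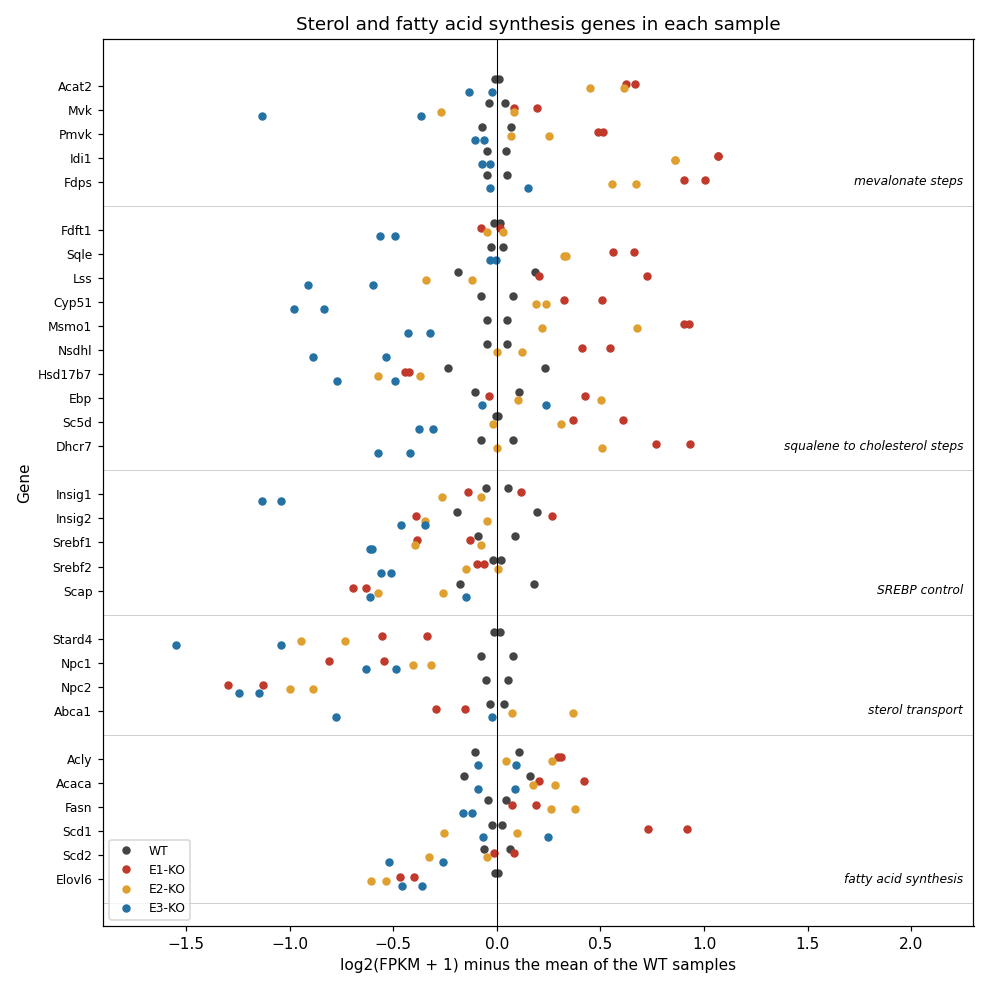
Each point is 1 sample: log2(FPKM + 1) minus the mean of the WT samples (x axis) for the 30 genes (y axis), grouped by role and coloured by group. Points of E1-KO lie to the right of WT for Acat2, Pmvk, Idi1, Fdps, Sqle, Msmo1 and Dhcr7, and points of E3-KO lie to the left for Cyp51, Nsdhl, Insig1 and Stard4.

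In all groups at once, 22 of the 30 genes differed between any of the 4 groups (F test in the same fit), against 54.5% of all tested genes. The mean was highest in E1-KO for all 5 mevalonate-step genes and for 7 of the 10 squalene-to-cholesterol genes. It was highest in WT for all 5 SREBP control genes and for 3 of the 4 sterol transport genes. Fdft1, Hsd17b7 and Elovl6 were also highest in WT, and Abca1 was highest in E2-KO. Some of these ranks rest on differences that were not called. The mean of Insig1 was 28.5 FPKM in WT and 28.3 in E1-KO, and that of Fdft1 was 35.5 in WT and 35.3 in E2-KO. No test compared the gene groups.

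Among the mevalonate steps, E1-KO and E2-KO held genes that rose and E3-KO did not. In E1-KO, 4 of the 5 measured genes rose (median log2 fold change 0.65). In E2-KO, 3 rose (median 0.53). In E3-KO none rose and 1 fell (median -0.08, beside -0.15 over all tested genes). Over all tested genes 15.0%, 14.2% and 13.9% rose and 23.0%, 22.0% and 30.8% fell in E1-KO, E2-KO and E3-KO. With 5 genes, both counts in E3-KO are near those shares. Summed FPKM of the 5 genes was 107.1 to 110.1 in WT, 181.9 to 190.6 in E1-KO, 151.4 to 154.4 in E2-KO, with 97.4 to 109.2 in E3-KO, so both E1-KO and both E2-KO sums lay above every WT and E3-KO sum. Fdps was the largest part of each sum, at 49.2 and 52.7 in WT and 103 and 96 in E1-KO.

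Idi1 encodes the isomerase that interconverts the isopentenyl and dimethylallyl diphosphates. It stood at 5.19 and 5.6 FPKM in WT, 12.4 and 12.4 in E1-KO, 10.6 and 10.6 in E2-KO, with 5.08 and 5.25 in E3-KO. Both E1-KO and both E2-KO samples lay above all WT and E3-KO samples, and the latter overlapped. The mean was 2.3 times that of WT in E1-KO and 1.97 times in E2-KO. The log2 fold change was 1.07 ± 0.11 (SE, limma adjusted p 0.000288) in E1-KO and 0.86 ± 0.11 (adjusted p 0.000792) in E2-KO, and both calls held under every alternative, except that E2-KO fell short of a minimum log2 fold change of 1. In E3-KO it was -0.05 ± 0.11 (adjusted p 0.731). Exons of Idi1 share 9.22% of their bases with the transcript Gm48574 on the opposite strand, and no strand setting is given in the sources used here.

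Fdps makes farnesyl diphosphate, the branch point between sterols and other isoprenoids. Its FPKM was 49.2 and 52.7 in WT, 103 and 96 in E1-KO, 75.4 and 81.7 in E2-KO, with 56.6 and 49.8 in E3-KO. The E1-KO samples were the highest, the E2-KO samples came between, and those of WT and E3-KO overlapped. In log2 terms the change was 0.95 ± 0.10 (limma adjusted p 0.000335) in E1-KO, 0.61 ± 0.10 (adjusted p 0.0026) in E2-KO, with 0.06 ± 0.10 (adjusted p 0.664) in E3-KO. The predicted gene Gm43738 overlaps 26.7% of Fdps exon bases on the same strand, so the share of reads counted for each is uncertain.

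Acat2, the cytosolic thiolase that joins acetyl-CoA units, measured 20.5 and 20.8 FPKM in WT, 33.4 and 32.3 in E1-KO, 32.1 and 28.6 in E2-KO, with 20.3 and 18.7 in E3-KO. Its log2 fold change was 0.65 ± 0.10 (limma adjusted p 0.00174) in E1-KO and 0.53 ± 0.10 (adjusted p 0.00462) in E2-KO. Every E1-KO and E2-KO sample lay above every WT and E3-KO sample. Pmvk, which adds the second phosphate to mevalonate, measured 20.6 and 18.6 in WT, 27.9 and 28.3 in E1-KO, 23.5 and 20.6 in E2-KO, with 18.1 and 18.7 in E3-KO. Its rise in E1-KO (log2 fold change 0.50 ± 0.11, limma adjusted p 0.00686) had an adjusted p of 0.0688 without WT replicate 2.

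Mvk, the kinase that phosphorylates mevalonate, was the 1 gene of these steps that fell in E3-KO. It stood at 11.7 and 12.4 FPKM in WT, 13.9 and 12.8 in E1-KO, 9.83 and 12.8 in E2-KO, with 9.11 and 4.94 in E3-KO. Both E3-KO samples were below the rest, and they differed from each other by more than those of any other group. The log2 fold change of -0.75 ± 0.23 (limma adjusted p 0.0244) had an adjusted p of 0.123 without E3-KO replicate 2, 0.0773 and 0.113 without WT replicates 1 and 2, 0.0555 with median-ratio scaling, 0.0817 with quantile normalization and 0.0639 with all genes above 0 tested.

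**Figure D2:**
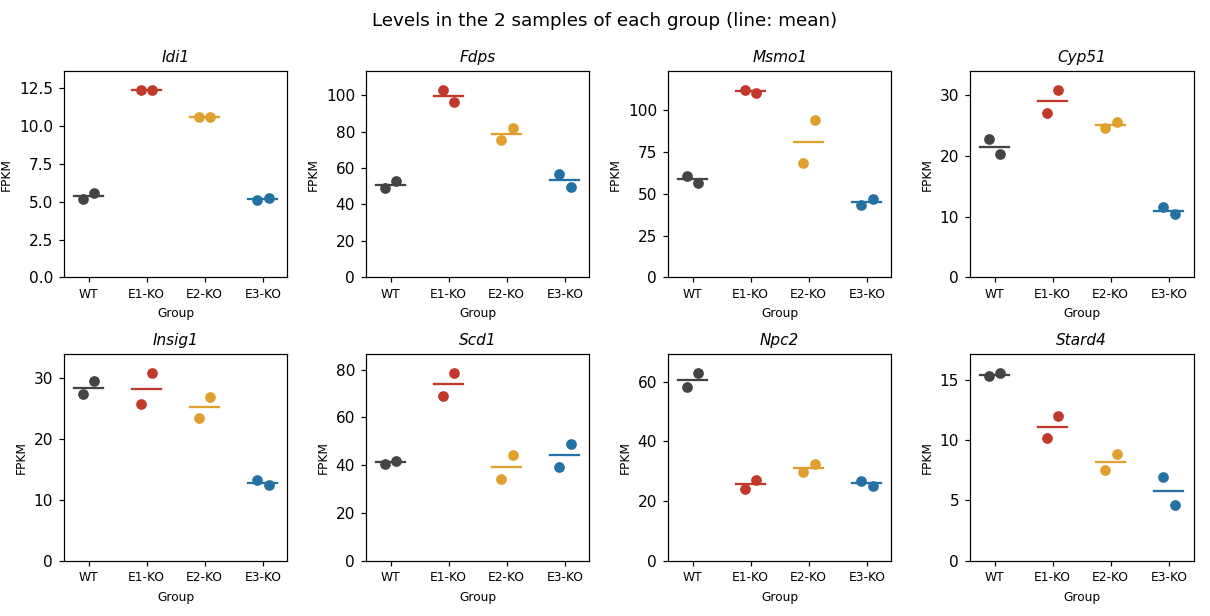
FPKM (y axis, starting at 0) of 8 genes in each sample (points) with the group mean (line) for WT, E1-KO, E2-KO and E3-KO (x axis). Idi1, Fdps and Msmo1 are highest in E1-KO, Cyp51 and Insig1 are lowest in E3-KO, Scd1 is high in E1-KO alone, and Npc2 is lower in all 3 knockouts than in WT.

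In the 10 measured genes from squalene to cholesterol, genes rose in E1-KO and fell in E3-KO. Over all tested genes 15.0%, 14.2% and 13.9% rose and 23.0%, 22.0% and 30.8% fell in E1-KO, E2-KO and E3-KO. The 2 genes that rose in E2-KO are near that share. In E1-KO 6 genes rose and none fell (median log2 fold change 0.47), in E2-KO 2 rose and none fell (median 0.18), and in E3-KO 6 fell and none rose (median -0.51). Summed FPKM was 226.5 to 233.5 in WT, 321.1 to 353.4 in E1-KO, 250.8 to 288.1 in E2-KO, with 170.5 to 174.3 in E3-KO. The 4 ranges did not overlap. Msmo1 was the largest part of each sum, at 60.4 and 56.5 in WT and 112 and 110 in E1-KO.

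Msmo1, the sterol C4-methyl oxidase, measured 60.4 and 56.5 FPKM in WT, 112 and 110 in E1-KO, 68.1 and 93.9 in E2-KO, with 43.1 and 46.5 in E3-KO. The E1-KO samples were the highest, those of E3-KO the lowest, and the E2-KO samples were far apart from each other. Its log2 fold change was 0.91 ± 0.14 (limma adjusted p 0.00158) in E1-KO, 0.45 ± 0.14 (adjusted p 0.0352) in E2-KO, with -0.38 ± 0.14 (adjusted p 0.0549) in E3-KO. The call in E2-KO was lost when either WT sample, either E1-KO sample or E2-KO replicate 2 was left out (adjusted p 0.0592 to 0.176) with quantile normalization (0.0832) and with scaling without the 50 highest genes (0.0852). That in E3-KO was gained without E2-KO replicate 1 or 2 (0.00837 and 0.00849).

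Dhcr7 encodes the reductase that turns 7-dehydrocholesterol into cholesterol. It measured 19 and 21.3 FPKM in WT, 35 and 39.3 in E1-KO, 20.1 and 29 in E2-KO, with 13.2 and 14.8 in E3-KO. E1-KO was above and E3-KO below the WT samples, and E2-KO overlapped them. Its log2 fold change was 0.85 ± 0.16 (limma adjusted p 0.00419) in E1-KO, 0.25 ± 0.16 (adjusted p 0.254) in E2-KO, with -0.49 ± 0.16 (adjusted p 0.0355) in E3-KO. The call in E3-KO was lost when any WT, E1-KO or E3-KO sample was left out (adjusted p 0.0517 to 0.181) and under all 3 other scalings (0.0812 to 0.166), and Dhcr7 in E2-KO was called without E2-KO replicate 1 (0.0319).

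Cyp51, the lanosterol 14-alpha demethylase, had 22.7 and 20.3 FPKM in WT, 27.1 and 30.9 in E1-KO, 24.6 and 25.5 in E2-KO, with 11.6 and 10.4 in E3-KO. Its level in E3-KO was 0.511 times that of WT, with no overlap. In E3-KO the log2 fold change was -0.91 ± 0.11 (limma adjusted p 0.000434). That in E1-KO was 0.41 ± 0.11 (adjusted p 0.0196), with an adjusted p of 0.144 without E1-KO replicate 2 and 0.148 without WT replicate 2. The E3-KO call was kept whichever sample was left out.

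Nsdhl, the sterol dehydrogenase that acts after Msmo1 in C4 demethylation, had 11 and 11.8 FPKM in WT, 15.5 and 17.1 in E1-KO, 11.4 and 12.5 in E2-KO, with 5.7 and 7.54 in E3-KO. E1-KO lay above and E3-KO below every WT and E2-KO sample. The fall in E3-KO (log2 fold change -0.71 ± 0.14, limma adjusted p 0.00371) was kept whichever sample was left out. The rise in E1-KO (0.48 ± 0.14, adjusted p 0.025) was lost when any 1 of the WT and E1-KO samples was left out (adjusted p 0.0717 to 0.141).

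Sqle, the squalene epoxidase and a rate-limiting step of the pathway, had 26.3 and 27.4 FPKM in WT, 40.1 and 43.1 in E1-KO, 33.8 and 34.1 in E2-KO, with 26.2 and 26.8 in E3-KO. The order E1-KO, E2-KO, then WT with E3-KO was the same as that of Idi1. Its log2 fold change was 0.61 ± 0.09 (limma adjusted p 0.00141) in E1-KO and 0.33 ± 0.09 (adjusted p 0.0227) in E2-KO. The call in E2-KO was lost when any 1 of the WT and E2-KO samples was left out (adjusted p 0.0528 to 0.131) and when scaling left out the 50 highest genes (0.0518). Sc5d, the lathosterol desaturase, had 11.9 and 11.8 in WT, 15.6 and 18.6 in E1-KO, 11.7 and 14.9 in E2-KO, with 9.37 and 8.91 in E3-KO, and Sc5d rose in E1-KO (0.49 ± 0.14, adjusted p 0.0227), a call lost without E1-KO replicate 2 (0.157) or WT replicate 1 or 2 (0.0933 and 0.108). Without E2-KO replicate 1 or 2, Sc5d was called lower in E3-KO (0.0422 and 0.043).

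Fdft1, Lss and Hsd17b7 fell in E3-KO and were not called in E1-KO or E2-KO. Fdft1, the squalene synthase, had 35.9 and 35.1 FPKM in WT, 33.6 and 35.9 in E1-KO, 34.3 and 36.2 in E2-KO, with 25 and 23.7 in E3-KO, a log2 fold change of -0.52 ± 0.09 (limma adjusted p 0.00235) in E3-KO. WT, E1-KO and E2-KO overlapped in Fdft1 and E3-KO was lower than all of them. However, 18.3% of its exon bases overlap Ctsb on the opposite strand. Lss, the lanosterol synthase, had 15.3 and 11.6 in WT, 15.5 and 22.7 in E1-KO, 10.3 and 12.2 in E2-KO, with 8.47 and 6.63 in E3-KO. Hsd17b7, a 3-ketosteroid reductase of the pathway, had 11.1 and 7.75 in WT, 6.66 and 6.56 in E1-KO, 5.92 and 6.95 in E2-KO, with 6.32 and 5.02 in E3-KO. The falls of Lss (-0.76 ± 0.20, adjusted p 0.0151) and Hsd17b7 (-0.63 ± 0.18, adjusted p 0.0179) in E3-KO rest on WT replicate 1 and E3-KO replicate 2: without the former the adjusted p was 0.113 and 0.145, and without the latter 0.0913 and 0.0998. Quantile normalization gave 0.0572 for Lss and 0.0904 for Hsd17b7, median-ratio scaling gave 0.0568 for Hsd17b7, and without WT replicate 2 Hsd17b7 was called lower in E1-KO (0.043) and E2-KO (0.0388). Ebp, the sterol isomerase, was called in no comparison and ranged from 19.7 to 30.6 FPKM over the 8 samples.

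No gene of SREBP control rose in any knockout. In E1-KO 1 of the 5 fell, in E2-KO none was called, and in E3-KO 3 fell. The medians were -0.08, -0.20 and -0.53. Over all tested genes 23.0%, 22.0% and 30.8% fell, so the 1 gene in E1-KO is near that share. The shares that rose were 15.0%, 14.2% and 13.9%, and with 5 genes none higher is near them. Summed FPKM was 155.2 to 171.7 in WT, 137.3 to 152.5 in E1-KO, 134.8 to 154.3 in E2-KO, with 103.9 to 108.0 in E3-KO.

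Insig1, which retains SCAP in the endoplasmic reticulum and is itself an SREBP target, had 27.4 and 29.5 FPKM in WT, 25.7 and 30.9 in E1-KO, 23.5 and 26.9 in E2-KO, with 13.3 and 12.4 in E3-KO. E1-KO overlapped both WT and E2-KO, and E3-KO was lower than all of them. In E3-KO the log2 fold change was -1.09 ± 0.12 (limma adjusted p 0.00026), beside -0.01 ± 0.12 (adjusted p 0.943) in E1-KO and -0.17 ± 0.12 (adjusted p 0.3) in E2-KO. Insig2, its paralog, was called in no comparison and ranged from 5.12 to 9.15 FPKM.

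Srebf2 encodes SREBP-2, the factor that acts mainly on cholesterol genes. It had 70.1 and 72.2 FPKM in WT, 66.5 and 68 in E1-KO, 64 and 71.3 in E2-KO, with 48 and 49.7 in E3-KO. Its log2 fold change in E3-KO was -0.53 ± 0.09 (limma adjusted p 0.00215), and both E3-KO samples were below the other 6. Srebf1, whose SREBP-1 products act mainly on fatty acid genes, had 32.3 and 36.7 in WT, 26.1 and 31.4 in E1-KO, 25.9 and 32.6 in E2-KO, with 22.2 and 22.3 in E3-KO. Its fall in E3-KO (-0.61 ± 0.14, adjusted p 0.00702) had an adjusted p of 0.0638 without WT replicate 2. Scap, the escort protein, had 19 and 24.6 in WT, 13.6 and 13 in E1-KO, 14.2 and 17.9 in E2-KO, with 19.4 and 13.8 in E3-KO. Scap fell in E1-KO (-0.66 ± 0.18, adjusted p 0.0207), a call lost without either E1-KO sample (0.0825 and 0.0933), without WT replicate 2 (0.157) or with all genes above 0 tested (0.0537), and without E3-KO replicate 1 it was called in E3-KO (0.0355).

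No sterol transport gene rose in any knockout, and Npc2 fell in all 3. In E1-KO 2 of 4 fell, in E2-KO 2 and in E3-KO 3, with none higher and medians of -0.56, -0.60 and -0.88. Over all tested genes 23.0%, 22.0% and 30.8% fell and 15.0%, 14.2% and 13.9% rose. With 4 genes, none higher is near the latter shares. Summed FPKM was 98.6 to 101.4 in WT and 43.6 to 62.7 over the 6 knockout samples. Npc2 alone made up most of the sum in WT, at 58.4 and 63.

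Npc2, the soluble lysosomal protein that binds cholesterol released from lipoproteins, had 58.4 and 63 FPKM in WT, 24.1 and 27.2 in E1-KO, 29.9 and 32.3 in E2-KO, with 26.8 and 25 in E3-KO. Each of the 6 knockout samples lay under the WT range. Log2 fold changes were -1.21 ± 0.10 (limma adjusted p 0.000152) in E1-KO, -0.94 ± 0.10 (adjusted p 0.000436) in E2-KO, with -1.20 ± 0.10 (adjusted p 9.36e-05) in E3-KO. Npc1, the lysosomal membrane protein that works with NPC2, had 14.9 and 13.3 in WT, 7.59 and 9.33 in E1-KO, 10.4 and 11.1 in E2-KO, with 9.76 and 8.72 in E3-KO. It fell in E1-KO (-0.67 ± 0.13, adjusted p 0.00463) and in E3-KO (-0.56 ± 0.13, adjusted p 0.0088), the latter with an adjusted p of 0.0712 without WT replicate 1 and 0.0663 after quantile normalization, and had -0.36 ± 0.13 (adjusted p 0.0628) in E2-KO, where Npc1 was called with scaling without the 50 highest genes (0.046).

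Stard4, a cytosolic sterol carrier and SREBP target, had 15.3 and 15.6 FPKM in WT, 10.2 and 12 in E1-KO, 7.54 and 8.9 in E2-KO, with 6.99 and 4.62 in E3-KO. The groups followed each other in that order with no overlap. It fell in E2-KO (log2 fold change -0.84 ± 0.17, limma adjusted p 0.0066) and in E3-KO (-1.29 ± 0.17, adjusted p 0.00064). In E1-KO it had -0.45 ± 0.17 (adjusted p 0.0723), which was called without E3-KO replicate 1 or 2 (0.0259 and 0.0254). Abca1, the LXR-driven exporter of cholesterol to lipoproteins, ranged from 5.34 to 13 FPKM and was called in none of the comparisons. Without E3-KO replicate 1, Abca1 was called lower in E3-KO against WT (0.00843) and against E2-KO (0.0103).

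Of the 6 fatty acid synthesis genes, Scd1 rose in E1-KO, Fasn rose in E2-KO, Elovl6 fell in all 3 knockouts and Scd2 fell in E3-KO. In E1-KO 1 rose and 1 fell, in E2-KO 1 rose and 1 fell, and in E3-KO 2 fell. The medians were 0.22, 0.04 and -0.07. Over all tested genes 15.0%, 14.2% and 13.9% rose and 23.0%, 22.0% and 30.8% fell, and with 6 genes these counts are near those shares. Summed FPKM was 413.0 to 450.6 in WT, 482.2 to 511.9 in E1-KO, 410.3 to 468.6 in E2-KO, with 362.8 to 407.9 in E3-KO.

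Scd1, the stearoyl-CoA desaturase that makes oleate, had 40.5 and 41.9 FPKM in WT, 69 and 78.7 in E1-KO, 34.4 and 44.1 in E2-KO, with 39.3 and 49 in E3-KO. E1-KO stood above all other samples, which overlapped. In E1-KO the log2 fold change was 0.82 ± 0.15 (limma adjusted p 0.00297), beside -0.08 ± 0.15 (adjusted p 0.7) in E2-KO, with 0.09 ± 0.15 (adjusted p 0.645) in E3-KO. Its close paralog Scd2 had 123 and 134 in WT, 127 and 136 in E1-KO, 102 and 124 in E2-KO, with 89.1 and 107 in E3-KO. The fall of Scd2 in E3-KO (-0.40 ± 0.13, adjusted p 0.0338) was lost when any WT or E1-KO sample or E3-KO replicate 1 was left out (0.0552 to 0.183) and under all 3 other scalings (0.0554 to 0.212). The counting of reads shared by the 2 paralogs is not given in the sources used here, so both values are uncertain.

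Elovl6, which elongates palmitate to stearate, had 40.8 and 40.4 FPKM in WT, 29.1 and 30.5 in E1-KO, 27.7 and 26.3 in E2-KO, with 31.4 and 29.3 in E3-KO. All 6 knockout samples were lower than WT. The log2 fold change was -0.43 ± 0.09 (limma adjusted p 0.00705) in E1-KO, -0.57 ± 0.09 (adjusted p 0.00221) in E2-KO, with -0.41 ± 0.09 (adjusted p 0.00745) in E3-KO. The calls in E1-KO and E3-KO were lost without WT replicate 1 (adjusted p 0.0521 and 0.0525) or WT replicate 2 (0.0517 and 0.0513), that in E1-KO also without E1-KO replicate 1 (0.064), and that in E3-KO with median-ratio scaling (0.0569).

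Fasn, the fatty acid synthase, had 84.9 and 90.2 FPKM in WT, 92.1 and 100 in E1-KO, 105 and 114 in E2-KO, with 78.1 and 80.5 in E3-KO. It rose in E2-KO (log2 fold change 0.32 ± 0.10, limma adjusted p 0.0297), a call lost when either WT sample, either E1-KO sample or E2-KO replicate 2 was left out (0.0526 to 0.175) after quantile normalization (0.0911) and with scaling without the 50 highest genes (0.0758). Acly, which cleaves citrate to cytosolic acetyl-CoA, was called in none of the comparisons and ranged from 108 to 144 FPKM. Its log2 fold change in E1-KO was 0.30 ± 0.12 (adjusted p 0.0739), and Acly was called there with median-ratio scaling (0.041) and without E2-KO replicate 1 or 2 (0.0484). Acaca, the carboxylase that makes malonyl-CoA, ranged from 15.5 to 23.7 FPKM and was called in none of the comparisons, and quantile normalization called it in E1-KO (0.0416). A second deposited row under the Acaca identifier ranged from 5.9 to 52.9 FPKM, and adding both rows gave a call in E2-KO (log2 fold change 1.03, adjusted p 0.017).

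The knockouts were next compared with each other. These fold changes use no WT sample, but the p-values do, since all groups share the spread estimated in 1 fit. E3-KO was lower than E1-KO in 18 of the 30 genes and higher in none, against 16.4% and 9.41% of all tested genes. E3-KO was lower than E2-KO in 13 and higher in none, against 10.1% and 5.48%. The median log2 fold change was -0.54 against E1-KO and -0.46 against E2-KO, beside -0.10 and -0.09 over all tested genes. E2-KO was lower than E1-KO in 1 gene and higher in none, against 0.346% and 0.488% of all tested genes. The first 2 of these comparisons share the E3-KO samples. With only the samples of the pair fitted, the genes called were 18, 6 and 0 in these 3 comparisons. Over all 11268 tested genes they were then 2487, 671 and 1.

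**Figure D3:**
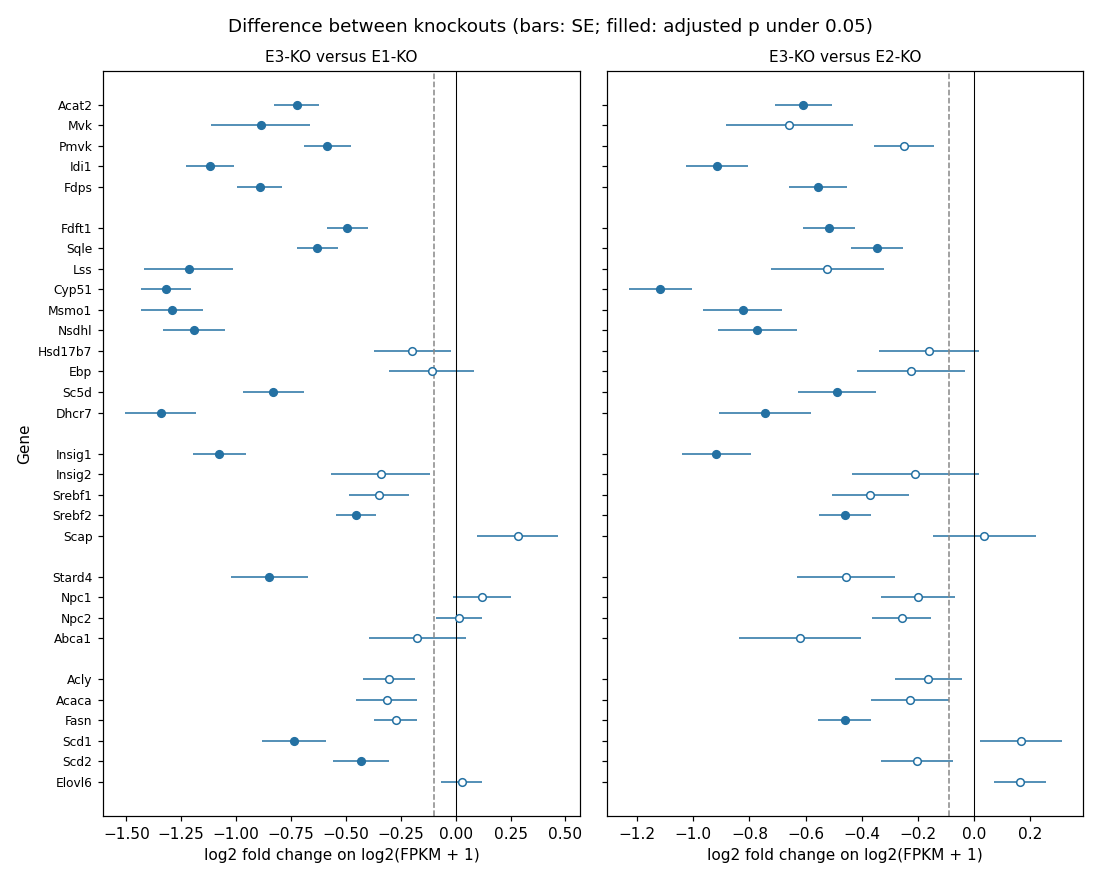
Log2 fold change on log2(FPKM + 1) of E3-KO against E1-KO (left) and against E2-KO (right) for the 30 genes, with bars of 1 SE, filled points for an adjusted p under 0.05 and a dashed line at the median of all tested genes. Filled points lie left of 0 for all 5 mevalonate-step genes against E1-KO, while in the left panel Npc1, Npc2, Scap and Elovl6 lie right of the dashed line.

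By role, E3-KO was lower than E1-KO in all 5 mevalonate-step genes and in 8 of 10 squalene-to-cholesterol genes, and lower than E2-KO in 3 and 7. The largest difference was in Dhcr7 (E3-KO against E1-KO -1.34 ± 0.16, limma adjusted p 0.000702), followed by Cyp51 (-1.32 ± 0.11, adjusted p 0.000249), Msmo1 (-1.29 ± 0.14, adjusted p 0.000481), Lss (-1.22 ± 0.20, adjusted p 0.00313) and Nsdhl (-1.19 ± 0.14, adjusted p 0.000613). Against E2-KO the largest was Cyp51 (-1.12 ± 0.11, adjusted p 0.000876), then Idi1 and Insig1 (-0.92 each, adjusted p 0.00162 and 0.00223). In Npc2, which was lower than WT in all knockouts, E3-KO differed from E1-KO by 0.01 ± 0.10 (adjusted p 0.935), and in Elovl6 by 0.03 ± 0.09 (adjusted p 0.85).

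Several of these calls were lost when a library was left out. Against E1-KO, the call of Mvk was lost without E1-KO replicate 1 or 2 or E3-KO replicate 2 (adjusted p 0.0645 to 0.109) and that of Scd2 without either WT sample, either E1-KO sample or E3-KO replicate 1 (0.0643 to 0.184). Without E1-KO replicate 2, Fdft1 (0.0548), Srebf2 (0.0623), Stard4 (0.064) and Scd1 (0.0589) were no longer called, and Srebf2 was also lost without E1-KO replicate 1 (0.0564). Fasn was called against E1-KO without E2-KO replicate 1 or 2 (0.045 and 0.0452). Against E2-KO, Sqle was lost whichever sample was left out (0.0667 to 0.0821), Sc5d whichever was left out other than E2-KO replicate 1 (0.0594 to 0.163), and Dhcr7 without E2-KO replicate 2 (0.0516) or E3-KO replicate 1 (0.0673). With other scalings, Scd2 against E1-KO (0.111 to 0.124) and Sqle (0.0926 to 0.147) and Sc5d (0.0775 to 0.132) against E2-KO were lost. Scaling without the 50 highest genes also ended the calls of Srebf2 (0.0602) and Fasn (0.0588) against E2-KO. Without E3-KO replicate 1, Mvk (0.0102) and Stard4 (0.0269) were called against E2-KO.

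The 1 gene that differed between E2-KO and E1-KO was Scd1, with a log2 fold change of -0.90 ± 0.15 (limma adjusted p 0.0362). It was lost when either E1-KO sample, either WT sample or E2-KO replicate 1 was left out (0.0908 to 0.188). Without E2-KO replicate 2, Msmo1 was called lower in E2-KO than in E1-KO (0.0472). For the enzymes of the mevalonate steps, no difference between E2-KO and E1-KO was called, with log2 fold changes such as -0.34 ± 0.10 in Fdps (adjusted p 0.144) and -0.20 ± 0.11 in Idi1 (adjusted p 0.364), which does not show that these knockouts acted alike.

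Other genes around the pathway were taken from 7 lists named by function, chosen with earlier results of these data known. Their counts stand beside 15.0%, 14.2% and 13.9% of all tested genes that rose and 23.0%, 22.0% and 30.8% that fell in E1-KO, E2-KO and E3-KO. None of the 5 genes of LXR and sterol efflux, the 14 of sterol uptake, storage and trafficking or the 18 of fatty acid oxidation rose in E1-KO or E2-KO. With so few efflux genes and uptake and storage genes, none higher is near the shares over all genes. Of the efflux genes 1, 3 and 3 fell in E1-KO, E2-KO and E3-KO, the first of these counts being near the share over all genes. Of the uptake and storage genes 7 fell in each knockout. Of the 8 genes of SREBP maturation and sterol-regulated degradation, 1 rose and 4 fell in E1-KO, 4 fell in E2-KO and 6 fell in E3-KO. Medians of the uptake and storage genes were -0.33, -0.31 and -0.42, and those of the maturation genes -0.57, -0.42 and -0.43, below the medians of all tested genes.

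Abcg1, an LXR-driven sterol exporter, had 8.37 and 8.9 FPKM in WT, 2.29 and 3.54 in E1-KO, 3.08 and 3.15 in E2-KO, with 3.92 and 3.66 in E3-KO. It fell in all 3 knockouts (log2 fold change -1.32, -1.23 and -1.01, limma adjusted p 0.000632, 0.000929 and 0.00155). Soat1, which esterifies cholesterol for storage, fell by 0.93, 1.21 and 1.29 on the log2 scale, and Lipa, the lysosomal lipase that frees cholesterol from its esters, fell by 0.94, 0.99 and 1.12. The lipoprotein receptor Vldlr fell by 0.57, 0.90 and 0.60. Soat1, Lipa and Vldlr were low, at 0.487 to 4.65 FPKM, so that log2(FPKM + 1) understates their change. In the SREBP maturation list, Erlin1 and Erlin2, scaffold proteins of sterol-regulated degradation, fell in all 3 knockouts (-0.78, -0.55 and -0.57 for Erlin1, -0.72, -0.46 and -0.43 for Erlin2). In the efflux list, Lpcat3 fell in E2-KO (-0.49) and E3-KO (-1.23), and Abca2 fell in E3-KO (-0.75).

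Of 22 genes of fatty acid supply, elongation and desaturation, 2 rose and 8 fell in E1-KO, 8 fell in E2-KO and 12 fell in E3-KO (medians -0.08, -0.15 and -0.43). Over all tested genes 15.0%, 14.2% and 13.9% rose and 23.0%, 22.0% and 30.8% fell. The 2 genes that rose in E1-KO are near that share. Acss2, which makes acetyl-CoA from acetate, fell by 0.88, 0.69 and 0.92 on the log2 scale, and the elongase Elovl7 fell by 1.32, 1.48 and 0.64. Mid1ip1, an activator of acetyl-CoA carboxylase, had 9.9 and 10.1 FPKM in WT, 13.7 and 10.3 in E1-KO, 8.52 and 5.95 in E2-KO, with 3.55 and 4.45 in E3-KO, and Mid1ip1 fell in E3-KO (-1.14 ± 0.19, limma adjusted p 0.00157).

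Of the 18 fatty acid oxidation genes, 7, 8 and 7 fell and 2 rose, both in E3-KO (medians -0.30, -0.35 and -0.18). Both counts in E3-KO are near the shares over all genes, 30.8% lower and 13.9% higher. The shares over all genes that fell in E1-KO and E2-KO were 23.0% and 22.0%. Cpt1a, the gatekeeper of mitochondrial fatty acid import, had 52.5 and 59.6 FPKM in WT, 24.9 and 25.1 in E1-KO, 27.6 and 33.4 in E2-KO, with 37.2 and 33.2 in E3-KO. All knockout samples of Cpt1a were below WT, with log2 fold changes of -1.13, -0.86 and -0.65 (limma adjusted p 0.000325, 0.00115 and 0.00277). The acyl-CoA dehydrogenase Acadl fell by 0.74, 1.14 and 0.89, and the reductase Decr1 fell in E2-KO (-0.84) and E3-KO (-1.12).

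In the isoprenoid branch, 1 of 12 genes rose and 4 fell in E1-KO, 2 fell in E2-KO, and 1 rose and 4 fell in E3-KO (medians -0.16, -0.07 and -0.18). The counts that fell are near or below the shares over all genes in E2-KO (22.0%) and E3-KO (30.8%). Coq2, which joins the ring of ubiquinone to its isoprenoid tail, fell by 0.81, 0.92 and 1.33 on the log2 scale, and the CAAX protease Rce1 fell by 0.62, 0.39 and 0.60. Pdss1, which builds that tail, rose in E1-KO (0.46, limma adjusted p 0.0409) and E3-KO (0.46, adjusted p 0.0362). In glycerolipid synthesis, 1 of 14 genes rose in each knockout and 6, 4 and 6 fell (medians -0.28, -0.28 and -0.34). Over all tested genes 15.0%, 14.2% and 13.9% rose and 23.0%, 22.0% and 30.8% fell. With 14 genes, the counts that rose, and those that fell in E2-KO and E3-KO, are near those shares. Ptdss2, a phosphatidylserine synthase, fell by 0.62, 0.78 and 1.01, and Lpin3, a phosphatidate phosphatase, fell by 0.60, 0.57 and 0.63. Gpam, the mitochondrial glycerol-3-phosphate acyltransferase, fell in E1-KO (-0.52) and E3-KO (-0.61).

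**Figure D4:**
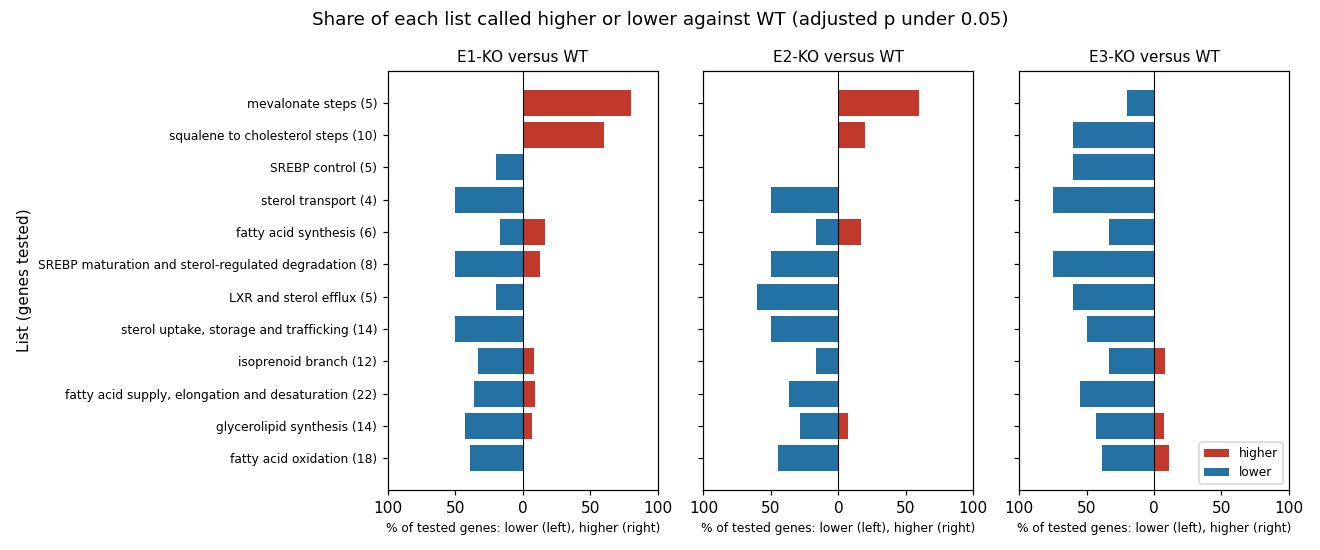
Share of each list's tested genes (number in brackets) called higher (right) or lower (left) than WT at an adjusted p under 0.05, in percent, for each knockout. In E1-KO and E2-KO the bars of the mevalonate and squalene-to-cholesterol steps point right, while most bars of the other lists point left. In E3-KO no member group has a bar to the right.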

How the data were processed

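The authors deposited 1 table of gene identifiers and values per sample. Per the submitters' processing notes, the tools were Trimmomatic 0.36, TopHat2 2.0.12 and Cufflinks 2.2.1 with build mm9. No header states the unit: the deposited values were taken as FPKM, which Cufflinks gives and the values do not contradict. Libraries came from a total RNA kit, per the labels' protocols. Each table held 18774 rows for 17812 identifiers, of which 660 had several rows. For 571 of these the row at the gene's place in chromosome, strand and position order was kept, and 89 were left out. Symbols matched 17262 identifiers.

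The 11268 genes whose mean reached 1 FPKM entered limma-trend on log2(FPKM + 1) (limma 3.58.1, R 4.3.3), all 4 groups in 1 fit with group as the only term (4 residual degrees of freedom), Benjamini-Hochberg over all tested genes, two-sided, called under 0.05. Fold changes are on that scale and understate low genes. The script was tested on simulated data. Ratios are of the means of 2 samples (n = 2 in each group). The depth is unknown, so no counting interval is given. The ± after a fold change is the SE of the fit. Genes called in a pairwise comparison are given in every sample, other members by range. Outside the members, up to 3 called genes per list with the largest change were named, and Sox2. 1 gene this rule would name is not reported here. The members and lists were chosen with earlier results of these data known. Normalization, filters, pseudocount, thresholds, repeated rows, a replicate block and each sample left out were tried as alternatives. Promoters are from RefSeq (GRCm38.p6), and exon overlaps from GENCODE M21.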

Additional observations from a re-analysis of the deposited data

Results flagged for a closer look

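In 3 genes the change against WT was called higher in E1-KO and lower in E3-KO. The log2 fold change of E3-KO against E1-KO was -1.32 in Cyp51, -1.192 in Nsdhl and -1.344 in Dhcr7. These genes were picked by their calls on either side of the same WT samples, so the difference between the knockouts describes them and adds no support. Calls behind the choice were lost when single samples were left out: Nsdhl and Cyp51 in E1-KO and Dhcr7 in E3-KO. The part of the line, the depth or other cells in these differences was not tested. Groups of 2 samples are too small for a test of single outlying samples.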

How the results depend on the processing

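No called result changed direction under any alternative. Of the 71 calls of a gene in a pairwise comparison, 63 were kept with median-ratio scaling, 60 with quantile normalization, 61 with scaling that left out the 50 highest genes, 65 without the trend, 62 with all genes above 0 tested, 61 when only the samples of the pair were fitted, and 70 without chromosome 6. With a minimum absolute log2 fold change of 1, the counts of called members against WT were 2 (E1-KO), 0 (E2-KO) and 3 with E3-KO, 0 for E2-KO against E1-KO, and 7 and 1 for E3-KO against E1-KO and E2-KO. Of all 11268 tested genes, 707, 653 and 935 were then called against WT, and 41, 560 and 267 between the knockouts in the same order. With 30 genes, the counts against WT are near those shares. Quantile normalization gave 9 for E3-KO against WT, all lower, beside 2456 of all 11268 tested genes called lower. Fitting only the pair gave 0 for E2-KO against E1-KO and 6 for E3-KO against E2-KO, testing all genes above 0 gave 0 for E2-KO against E1-KO, and an adjusted p under 0.01 gave 0 and 8 for these comparisons. Over all tested genes the pair fit called 1 and 671, testing all genes above 0 called 1 of 17723, and the threshold of 0.01 called 0 and 575. With each sample left out in turn, counts against WT ran from 10 to 16 (E1-KO), 6 to 9 (E2-KO) and 8 to 17 (E3-KO), 0 to 2 for E2-KO against E1-KO, 12 to 19 and 10 to 13 for E3-KO against E1-KO and E2-KO, and 18 to 24 for the 4-group test. The lone sample left in a group is then assumed to vary like the other groups. The cause of these differences was not tested, apart from the threshold itself for stricter thresholds. Same-numbered replicates showed no shared deviation (correlations -0.042 to 0.089), which cannot show whether they were prepared together. A replicate block left the counts at 15, 9 and 15 against WT, 1, 18 and 13 between knockouts, and gave 23 against 22 in the 4-group test. Another scaling changed the split of all genes: against WT, 1567 rose and 3470 fell in E3-KO, and 2359 and 2370 with median-ratio scaling. In E1-KO 1695 and 2589 became 2061 and 2170, and in E2-KO 1595 and 2476 became 2002 and 1967. For E3-KO against E1-KO, 1060 and 1849 became 1450 and 1295. No minimum fold and no pair fit applies to the 4-group test. Absolute depth is unknown, which limits what can be said of low genes.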
